A study of Mus musculus with 4 samples.

Results

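Cytoplasmic ribosomal protein genes were described in embryonic mouse dermal cells from foot and back skin. The members were the genes whose symbol is that of a protein of the large (Rpl, Rplp) or small (Rps, Rpsa) subunit, without pseudogenes. A member also had to stand as its own entry with status OK in all 4 tables. In all, 53 of the 32866 gene symbols shared by the 4 tables met this rule, 30 of the large and 23 of the small subunit. No measured level was used to choose them. Another 27 symbols of such proteins shared an entry with a small nucleolar RNA or another gene in at least 1 table, and they are described apart.

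Dermal cells were sorted by fluorescence for an Axin2-LacZ transgene, which reports Wnt signalling. The foot libraries came from ventral foot skin at E17.5 (embryonic day), and the back libraries from dorsal back skin at E14.5. Values for the 4 libraries are given for the foot first and then the back, in each skin the positive before the negative library. Each skin gave 1 library labelled Axin2-LacZ positive and 1 labelled negative, so there were 4 groups of 1 library and no test between groups. The study asked whether Wnt-responsive cells differ between skins that form different structures. All embryos carried the reporter transgene, per the labels, and the sources used here do not give its design or any pooling of embryos. Site and stage changed together between foot and back and cannot be told apart. In such bulk samples, fewer cells of a type and less RNA per cell cannot be told apart.

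Each ribosome contains 1 copy of most ribosomal proteins, and cells make the proteins of both subunits in balanced amounts. Their mRNAs are among the most abundant in growing cells. Many start with an oligopyrimidine tract at the 5′ end (a TOP motif), through which mTOR signalling and Larp1 set their translation. Mouse mutants link single members to skin and skeleton: mutations of Rps19 and Rps20 give dark skin, and loss of Rpl38 changes the axial skeleton.

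The sequence at the transcription start was examined first, because the TOP motif is the sequence feature for which these genes are known. RefSeq starts on GRCm38.p6 were matched for 42 of the 53 members; 8 had more than 1 start, and the first listed was used. A tract of C followed by at least 6 bases that are each C or T was searched from 20 bases before to 30 bases after the start. It was present on the gene's strand in 24 of 42 members (57.1%), against 22.1% of 27025 genes. It was found in 52.0% of large and 64.7% of small subunit members, and in 28.8% of 66 mitochondrial ribosomal protein genes. On the other strand it was present in 3 of 42 members (7.14%), against 25.6% of all genes. The shorter strings CTTTC or CTTTT, which can lie inside such a tract, were found in 33.3% of members and 10.9% of all genes on the gene's strand. On the other strand these strings were found in 14.3% and 10.6%. A match is a description of the letters, and use of these starts in dermal cells was not measured.

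Windows of 30 bases, 10 before the start and 20 from the start on, are shown for 9 members. The first pair is Rpl39 and its paralogue Rpl39l, the second is Rps27 and its paralogue Rps27l. The next 5 are Rps15a, Rps24, Rpl14, Rpl15 and Rpl35, of which the first 4 are among the members described below for their ratios. Capitals mark the longest run of C and T in each window, on the gene's strand.
Rpl39, chrX:37085203-37085232, minus strand: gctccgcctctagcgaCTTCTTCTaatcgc
Rpl39l, chr16:10170218-10170247, plus strand: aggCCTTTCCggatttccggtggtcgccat
Rps27, chr3:90213629-90213658, minus strand: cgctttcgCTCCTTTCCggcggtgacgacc
Rps27l, chr9:66946076-66946105, plus strand: CCTCCCCgccgcctctatcccggaagttgc
Rps15a, chr7:118116128-118116157, minus strand: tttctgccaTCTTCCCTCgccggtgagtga
Rps24, chr14:24490668-24490697, plus strand: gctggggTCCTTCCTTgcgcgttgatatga
Rpl14, chr9:120571507-120571536, plus strand: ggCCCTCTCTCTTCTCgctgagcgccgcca
Rpl15, chr14:18270967-18270996, minus strand: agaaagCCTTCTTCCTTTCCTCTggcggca
Rpl35, chr2:39005112-39005141, minus strand: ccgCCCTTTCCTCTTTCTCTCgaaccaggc
The run was 18 bases long in Rpl35, 17 in Rpl15 and 14 in Rpl14, and 7 to 9 in the other 6. In Rpl39l and Rps27l the run of 7 bases lay upstream of the listed start, whereas in Rpl39 it began at base 7, counting the start as base 1. In the other 6 the run spanned the start. The Rps27l run is cut by the edge of its window: in the wider search its tract had 9 bases and began 12 bases before the start.

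Levels are given as FPKM, the authors' count of fragments for each kilobase of transcript after scaling for library size, with the authors' lower and upper bounds, whose confidence level is not stated. The bounds cover reads within a library, not differences between animals. The median half-width of the bounds over coding genes of at least 5 FPKM was 23.1% and 14.1% in the foot and 9.01% and 9.91% in the back. For the members it was 9.17%, 6.05%, 4.99% and 5.17% in that order. Axin2, the reporter's gene, stood at 9.65 (7.10 to 12.5), 12.9 (10.2 to 15.3), 4.49 (3.89 to 5.09) and 3.13 (2.63 to 3.64) FPKM, so as deposited it goes against the label in the foot. All 8 dermal fibroblast markers were measured, with summed levels of 7141, 6714, 4355 and 3070 FPKM.

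Of the 53 members, 51 were above 5 FPKM in every library. Rpl10l, known as a testis gene, was listed at 0 in all 4, and Rpl3l, known from heart and skeletal muscle, was listed at 0 in 3 and at 0.622 FPKM in the foot negative library. The 28 other large subunit members had a median of 323 and 355 FPKM in the foot and 186 and 188 FPKM in the back. The 23 small subunit members had medians of 428 and 536 FPKM, then 283 and 287 FPKM. The small subunit median was thus above the large one in each library. As a share of the summed FPKM of coding genes, the members held 9.48%, 11.1%, 8.68% and 10.2%. In both skins the negative library had the larger share. Over all named entries, the denominator planned as the main one, the positive library had the larger share in both skins (0.0945% and 0.00714%, then 0.312% and 0.177%).

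Among large subunit genes, Rpl41, which encodes a very short peptide, was highest at 2003, 2318, 1081 and 1149 FPKM. Rpl7, Rpl14, Rpl8 and Rpl18 followed by median level. Rpl39l was the lowest at 8.30, 5.57, 34.4 and 29.2 FPKM, and Rpl29 was next at 35.9, 48.6, 40.7 and 38.7 FPKM. Rpl31, Rpl35a and Rpl15 completed the lowest 5. Among small subunit genes, Rps14 stood at 1223, 1576, 1019 and 772 FPKM. Rps9 and Rps19 were also among the highest 5. Rpsa, also known as the laminin receptor precursor, was lowest at 87.7, 119, 69.6 and 83.1 FPKM, below Rps7, Rps10, Rps25 and Rps15. Levels within the small subunit spanned 13.9-fold in the foot positive library, from Rpsa to Rps14.

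Deposited values lay above their own upper bound for 11, 14, 13 and 10 members, which is 21.6%, 26.9%, 25.5% and 19.6% of the members above 0. For coding genes of at least 5 FPKM, 5.75%, 9.57%, 12.1% and 9.51% lay outside their bounds. Rpl11, Rpl41, Rpl7, Rps24, Rps25, Rps27a and Rps9 were among those that did so in all 4 libraries, Rpl36 and Rps19 in 3 and Rpl39 in 2. Rpl22, Rpl26, Rpl31, Rpl36a, Rpl8, Rplp1, Rps10 and Rps7 did so in 1. The excess was 3.14-fold over the upper bound for Rpl39 in the foot negative library, and 1.71-fold to 1.77-fold for Rpl41. Levels and ratios of these members carry no half-width where such a value enters.

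**Figure D1:**
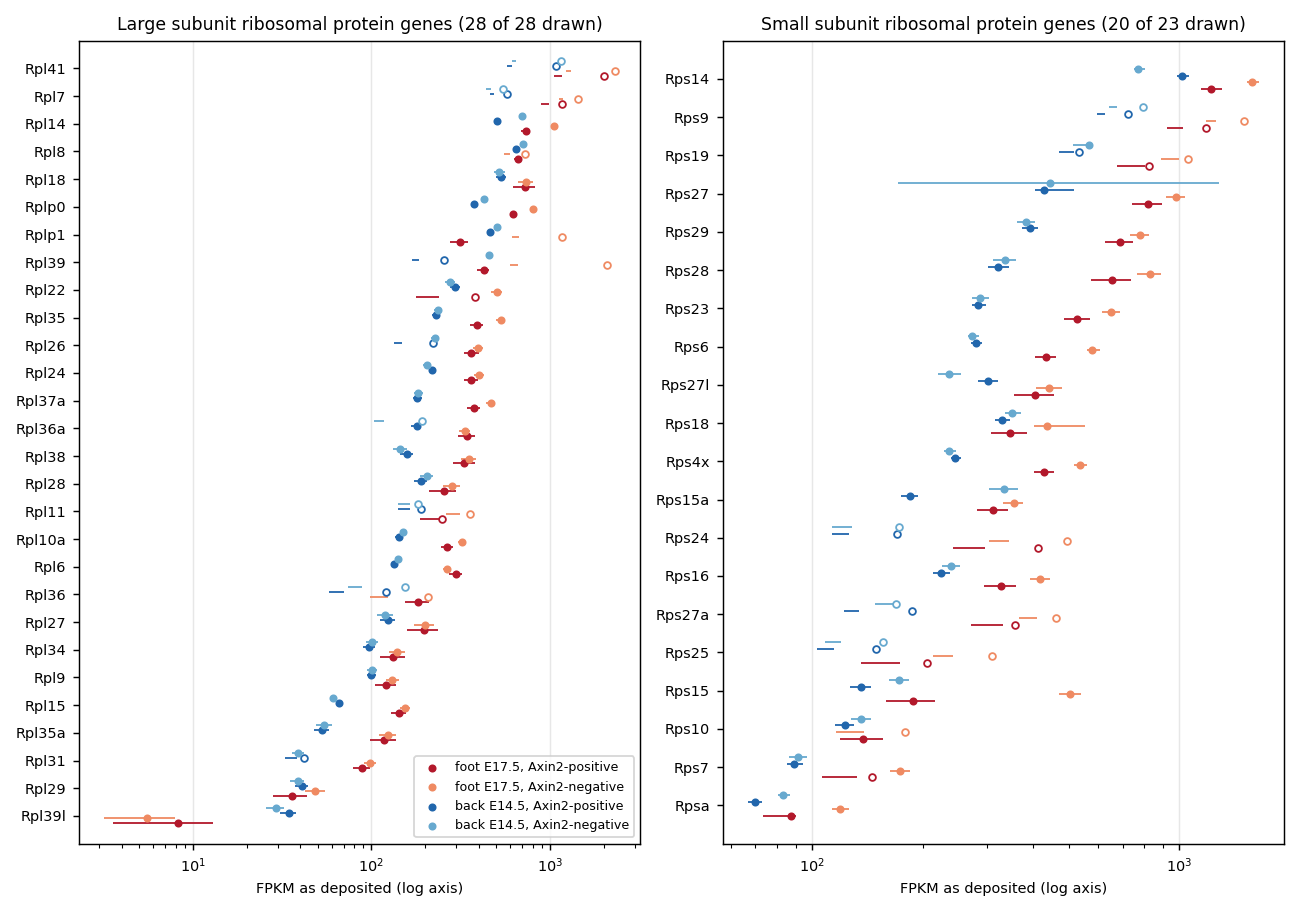
FPKM of the ribosomal protein genes above 0 in each of the 4 libraries (log axis), for the large and the small subunit. Lines are the authors' bounds and open circles are values outside their own bounds; Rpl41 is at the top of the large subunit and Rpl39l at the bottom, and 3 small subunit members are not drawn.

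The order of the levels was much alike in the 4 libraries. Over 49 members, without the paralogues Rpl39l and Rps27l, Pearson's r of log2 FPKM was 0.93 to 0.98 between libraries, which share the genes and the authors' processing. The SD of the log2 ratios over these members was 0.43 between the foot libraries and 0.21 between the back libraries. For 3303 other coding genes of at least 5 FPKM in every library it was 0.69 and 0.46; the members are the more abundant genes, and the part of level in this was not tested. Between foot and back the SD was 0.36 against 0.85 for the positive libraries and 0.41 against 0.85 for the negative ones. The members' SDs that involve the foot negative library include Rpl39 and Rplp1, whose values there lie above their own bounds. An SD without them was not computed. After rescaling, Rpl18 varied least over the 4 libraries, with a range of 0.23 on the log2 scale, and Rpl34 (0.28) and Rpl22 (0.29) were also among the lowest 4. The small range of Rpl22 rests on a foot positive value of 383 FPKM, above its own bounds of 178 to 239. Taken at the middle of the bounds, its log2 ratio of foot positive to foot negative was -1.02, against -0.15 from the FPKM.

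Ratios between libraries were log2 of (rescaled FPKM + 1), where the scale was set by the median ratio of 3354 coding genes. The shift that this scaling took out of all log2 ratios was -0.24 in the foot sort, 0.22 in the back sort, 0.24 between the positive and 0.70 between the negative libraries of foot and back. Ratios below are relative to it. A half-width (±) combines the authors' bounds of both values and says nothing of animals. A 2-fold ratio and non-overlap of the rescaled bounds are used as descriptive thresholds, since with 1 library per group there is no p-value. The members' bounds are narrower than those of most genes, which makes non-overlap easier to reach for them. They also hold more values outside their own bounds, for which non-overlap does not describe the printed ratio. Shares are therefore also given over genes with both values inside their own bounds, an alternative chosen after seeing the data.

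Between foot and back, most ribosomal protein genes were higher in the foot. In the positive libraries 45 of 51 members were higher, 24 of 28 in the large and 21 of 23 in the small subunit, against 53.4% of 5643 coding genes, and 6 were lower, against 46.6%. The median log2 ratio was 0.48 for the large and 0.40 for the small subunit, and 0.07 for all coding genes. Rescaled bounds stood apart for 33 members that were higher, against 30.8% of coding genes, and for 4 that were lower, against 27.6%. Over genes inside their own bounds, 21 of 36 members were higher with bounds apart, against 30.3% of coding genes, and 4 lower, against 27.8%. At least 2-fold higher was Rps24 alone, against 15.9% of coding genes, and at least 2-fold lower was Rpl39l alone, against 13.7%. As deposited, 10 members were at least 2-fold apart, and with bound midpoints 5. The median of all coding genes as deposited was 0.29, and the share of coding genes beside these counts was not computed.

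Rpl6, a large subunit protein, stood at 297 FPKM in the foot positive and 133 FPKM in the back positive library, a log2 ratio of 0.92 ± 0.14. Rps24 stood at 412 and 170 FPKM (1.03, and 0.93 at bound midpoints), both above their own bounds. Rpl35a, Rpl15 and Rpl38 followed at 0.91 ± 0.28, 0.87 ± 0.15 and 0.83 ± 0.24. At the other end Rplp1, an acidic protein of the ribosomal stalk, stood at 313 FPKM in the foot and 465 FPKM in the back (-0.80 ± 0.18). Rpl29 was lower at -0.41 ± 0.35 and Rpl8 at -0.20 ± 0.09, while Rps18 had -0.16 ± 0.18 and Rps10 -0.07 ± 0.21, with bounds that overlap. As deposited, without rescaling, the ratio of Rpl8 was 0.04, and the foot FPKM of Rps18 and Rps10 was also the higher one.

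In the negative libraries the same direction held for fewer members. Here 38 of 51 were higher in the foot, 19 of 28 in the large and 19 of 23 in the small subunit, against 55.4% of 5649 coding genes. Medians were 0.21 and 0.28, and 0.10 for all coding genes. Rescaled bounds stood apart for 27 members that were higher, against 36.1% of coding genes, and for 8 that were lower, against 29.5%. Over genes inside their own bounds, 20 of 36 members were higher with bounds apart, against 35.7%, and 6 lower, also against 29.5%. At least 2-fold higher was Rpl39 alone, against 15.4%, and at least 2-fold lower was Rpl39l alone, against 11.7%. The Rpl39 ratio (1.49) rests on 2093 FPKM in the foot negative library, 3.14-fold above its upper bound, and at bound midpoints it reverses to -0.24. As deposited, 23 members were at least 2-fold apart. All coding genes then had a median of 0.74, and their share at 2-fold was not computed. The 8 lower members were Rpl14, Rpl29, Rpl39l, Rpl8, Rpl9, Rps10, Rps15a and Rpsa; as deposited, all of them except Rpl39l were higher in the foot.

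Rps15 stood at 505 FPKM in the foot negative and 172 FPKM in the back negative library (0.84 ± 0.13). Rps24 (0.81), Rps27a (0.74), which is made as a fusion with ubiquitin, and Rpl7 (0.69) followed. Rpl8 had the lowest ratio after Rpl39l, at -0.66, with 728 FPKM in the foot and 706 in the back. The foot value of Rpl8 lies above its own bounds of 554 to 595, and at bound midpoints the ratio was -1.02, at least 2-fold lower. Rps15a stood at 353 and 333 FPKM (-0.62 ± 0.16), Rps18 had -0.39 ± 0.25 and Rpl29 -0.37 ± 0.23.

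**Figure D2:**
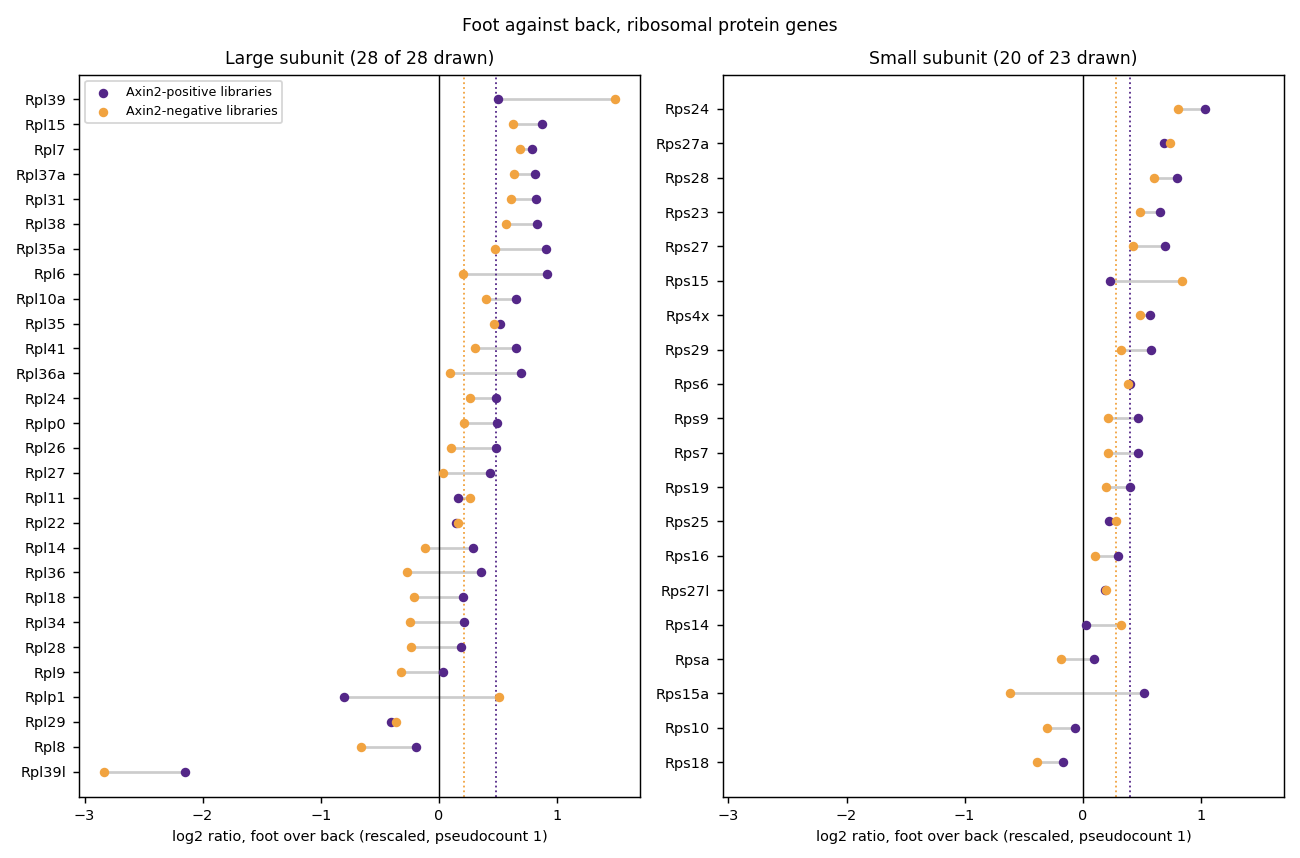
Log2 ratio of foot against back for each ribosomal protein gene after rescaling, in the positive and the negative libraries. Dotted lines are subunit medians (0.48 and 0.40 positive, 0.21 and 0.28 negative); most members lie above 0, Rpl39l lies far below, and 3 small subunit members are not drawn.

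The members are short genes, with a median transcript length of 638.5 bases against 1872 bases for 5810 coding genes of at least 5 FPKM. Among other coding genes of at least 50 FPKM in every library, 198 of at most 1000 bases had foot against back medians of 0.33 (positive) and 0.24 (negative). For 203 such genes over 1000 bases the medians were -0.05 and -0.09. The part of transcript length in the members' ratios was not tested. Within 49 members, the correlation of ratio and log2 length was -0.11 and -0.14.

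Within the back, the members were lower in the positive library. There 48 of 51 were lower, 27 of 28 in the large and 21 of 23 in the small subunit, against 48.1% of 4795 coding genes, and 3 were higher, against 51.9%. The median log2 ratio was -0.26 for the large and -0.28 for the small subunit, and 0.01 for all coding genes. Rescaled bounds stood apart for 38 members that were lower (18 large, 20 small), against 20.5% of coding genes, and for 1 that was higher, Rps14, against 23.9%. Over genes inside their own bounds, 25 of 37 members were lower with bounds apart, against 19.9% of coding genes, and 1 higher, against 24.1%. As deposited, the medians were -0.03 and -0.05 while that of all coding genes was 0.22, so the members' own FPKM was close in both libraries.

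Rps15a and Rpl39 were at least 2-fold lower in the back positive library, against 2.98% of coding genes, and none was 2-fold higher, against 3.88%. Neither reached 2-fold as deposited (-0.85 and -0.83) or relative to the members' median (-0.82 and -0.80). Rps15a stood at 184 FPKM (175 to 194) in the positive and 333 FPKM (302 to 364) in the negative library (-1.08 ± 0.15). Rpl39 stood at 256 and 456 FPKM (-1.06, and -1.60 at bound midpoints), the first above its own bounds of 169 to 184. Rpl14 followed at 508 and 702 FPKM (-0.69 ± 0.07), then Rpl36 (-0.58) and Rps15 (-0.57 ± 0.13). Rpsa had -0.47 ± 0.08 and Rplp0, the base of the ribosomal stalk, -0.40 ± 0.05. Rps14 stood at 1019 and 772 FPKM (0.18 ± 0.07), Rps27l at 302 and 236 FPKM (0.13 ± 0.14), and Rpl39l had 0.02 ± 0.22.

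In the foot, the subunit medians had opposite signs after rescaling but the subunit means did not. The median of the large subunit was 0.10, with 17 of 28 members higher in the positive library, and that of the small subunit was -0.10, with 4 of 23 higher. The means were -0.07 and -0.14, so large minus small was 0.20 by medians and 0.07 by means. The large subunit mean includes Rpl39 (-2.05) and Rplp1 (-1.65), whose foot negative values lie above their own bounds. Without members outside their bounds, large minus small was 0.22 by medians. Of all 5833 coding genes 49.6% were higher and 50.4% lower. The small subunit members above 0 included Rps15a, Rps27l and Rps29. As deposited, the medians were -0.15 and -0.35, and that of all coding genes was -0.23. Rescaled bounds stood apart for 4 members that were higher, against 21.3% of coding genes, and for 13 that were lower, against 20.2%. Over genes inside their own bounds, 2 of 35 members were higher with bounds apart, against 21.4%, and 8 lower, against 19.9%. Among the 18 large subunit genes in joined entries, 3 were higher and the median was -0.09, so the large subunit's value above 0 was not shared by them.

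Rps15, Rplp1 and Rpl39 were at least 2-fold lower in the foot positive library, against 9.63% of coding genes, and none was 2-fold higher, against 10.3%. Rps15 stood at 187 FPKM (159 to 216) in the positive and 505 FPKM (471 to 540) in the negative library (-1.18 ± 0.24). Rplp1 stood at 313 and 1171 FPKM (-1.65), the second above its own bounds of 611 to 671. Rpl39 stood at 426 and 2093 FPKM (-2.05), the second above its bounds of 597 to 667. Taken at the middle of their bounds, Rplp1 had -0.79 and Rpl39 -0.32. Rps25 followed at -0.35 and Rpl14 at -0.28 ± 0.10. Inside their own bounds, those higher with bounds apart were Rpl6 (297 and 264 FPKM, 0.41 ± 0.15) and Rpl36a (0.28 ± 0.19). Rpl8 (0.12) and Rpl36 (0.05) had foot negative values above their own bounds and were lower as deposited. Rpl39l had 0.70 ± 1.14, and Rpl18 and Rpl27 each had 0.23, with half-widths of 0.24 and 0.34.

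**Figure D3:**
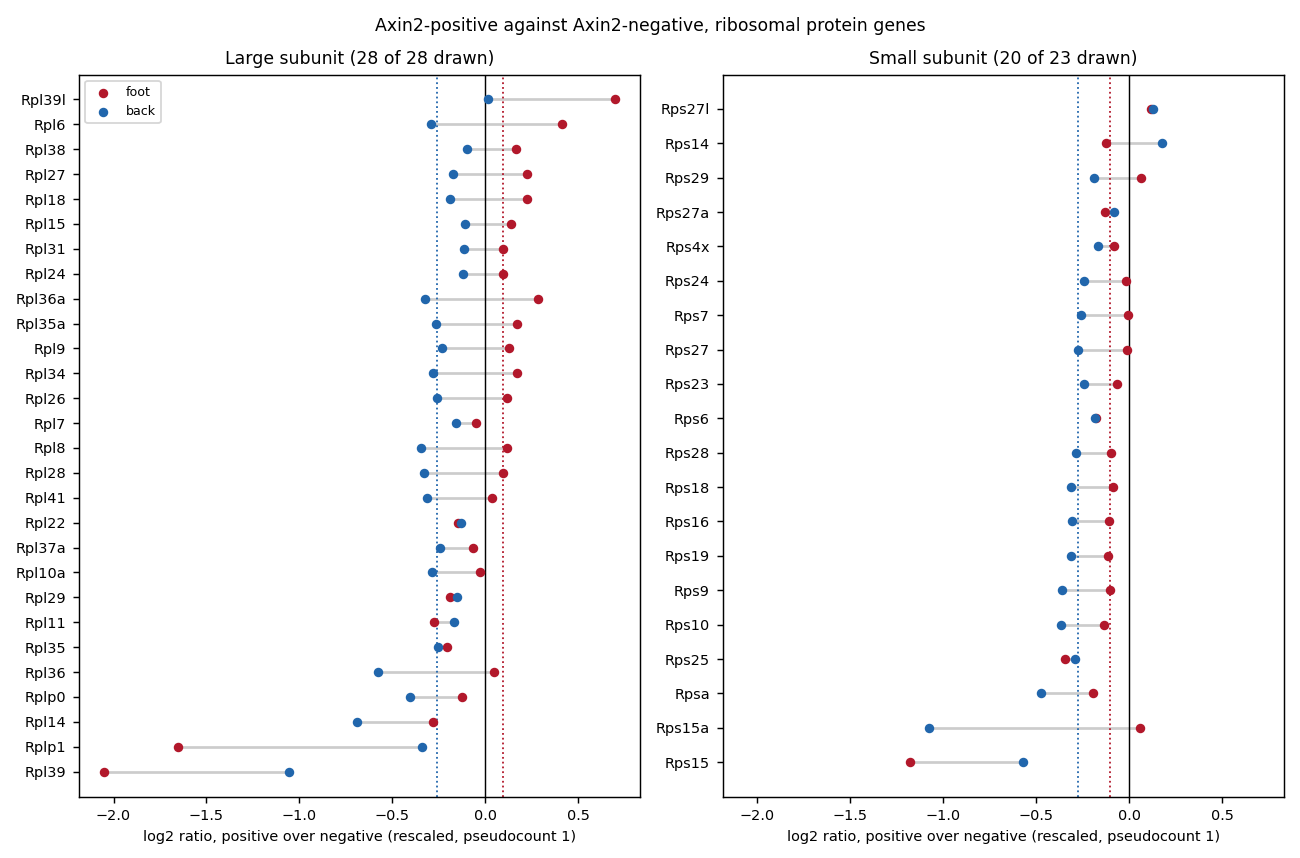
Log2 ratio of the positive against the negative library for each ribosomal protein gene after rescaling, in foot and back. Dotted lines are subunit medians (0.10 and -0.10 in the foot, -0.26 and -0.28 in the back; the first is -0.15 as deposited); Rpl39, Rplp1 and Rps15 stand lowest in the foot, and 3 small subunit members are not drawn.

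The sort ratio was higher in the foot than in the back for 41 of 51 members (80.4%), against 47.2% of 4354 coding genes. The median difference was 0.31 for the large and 0.20 for the small subunit, and -0.05 for all coding genes. As deposited, the members' median sort ratio was -0.30 in the foot and -0.04 in the back, so the foot value was the lower one. Medians of all coding genes compared in each sort were then -0.23 and 0.22. The direction of the members' difference thus depends on the scaling. Of the members, 29 were lower in the positive library of both skins, 2 were higher in both, and 20 had opposite signs, 16 of them of the large subunit. Of the 4354 coding genes, 1116 were lower in both, 1113 were higher in both, and 2125 had opposite signs. Axin2 itself went against the labels in the foot. With the foot libraries exchanged, 19 members would be lower in both, 1 higher in both, and 43 would have the higher ratio in the foot. For the 4354 coding genes these counts would be 973, 1152 and 2175. With 1 library per group the difference of the sort ratios was not tested.

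Markers of other cells moved with the groups. The summed level of 6 mast cell markers was 2.17, 265, 24.6 and 83.9 FPKM (foot, then back); Mcpt4 and Fcer1a were listed at 0 throughout. For 8 leukocyte markers it was 0.788, 4.49, 4.67 and 15.7 FPKM, with Ptprc at 0 in both foot libraries. The 5 keratinocyte markers in the files summed to 7.56, 0, 29.7 and 10.7 FPKM, with Trp63, Cdh1 and Epcam at 0 in both foot libraries. The 2 erythroid markers in the files summed to 0, 0, 3.71 and 13.5 FPKM. For endothelium the sums were 0.979, 0.461, 5.96 and 4.17 FPKM over 6 markers, with Pecam1 and Cdh5 at 0 in the foot. Muscle (5 of 6 markers in the files) reached at most 2.81 FPKM and Schwann and melanocyte markers (6) at most 2.59 FPKM. Dissociation stress genes (7 of 10) summed to 32.5, 93.1, 104 and 238 FPKM, lower in the positive library of both skins. The part of these in the members' ratios was not tested.

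The cell cycle genes did not follow the ribosomal protein genes between foot and back. Of 9 such genes, 1 was higher in the foot in the positive libraries (median -0.65) and none in the negative ones (median -1.57). Of coding genes 53.4% and 55.4% were higher. In the foot sort the cell cycle genes had a median of 0.48, with 7 of 9 higher, against 49.6% of coding genes. In the back sort their median was -0.13 (0.09 as deposited), with 2 of 9 higher, against 51.9%.

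Rpl39l differed most between the skins. This autosomal copy of the X-linked Rpl39 (mm9 chromosome 16, 10170318 to 10175004) is known from mouse testis. Its FPKM was 8.30 (3.56 to 13.0) and 5.57 (3.19 to 7.94) in the foot positive and negative libraries, and 34.4 (31.0 to 37.9) and 29.2 (25.8 to 32.5) in the back. After rescaling it was 4.44-fold lower in the foot in the positive libraries (-2.15 ± 0.95) and 7.12-fold lower in the negative ones (-2.83 ± 0.68). The foot and back bounds did not overlap, and among the 51 members it was the lowest in both comparisons. Rpl39 itself (mm9 chromosome X, 34622514 to 34625397) stood at 426, 2093, 256 and 456 FPKM. Because the copies are alike, how the authors' counting split reads between them is not known.

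Rps27l, a paralogue of Rps27 and a known target of p53, did not show such a pattern. It stood at 405 (355 to 455), 442 (407 to 477), 302 (283 to 320) and 236 (219 to 254) FPKM. Rps27 stood at 819, 977, 429 and 445 FPKM, and the last value had bounds of 172 to 1283. Rps27l was 0.19 ± 0.20 and 0.20 ± 0.16 between foot and back, and Rps27 was 0.70 ± 0.22 and 0.43 ± 1.45. Rpl22l1, a paralogue of Rpl22 outside the symbol rule, stood at 385, 433, 177 and 158 FPKM, with ratios of 0.88 and 0.75. Rpl22 had 0.15 and 0.16, but its foot positive value of 383 FPKM lay above its bounds of 178 to 239, and at bound midpoints the first ratio is -0.74.

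**Figure D4:**
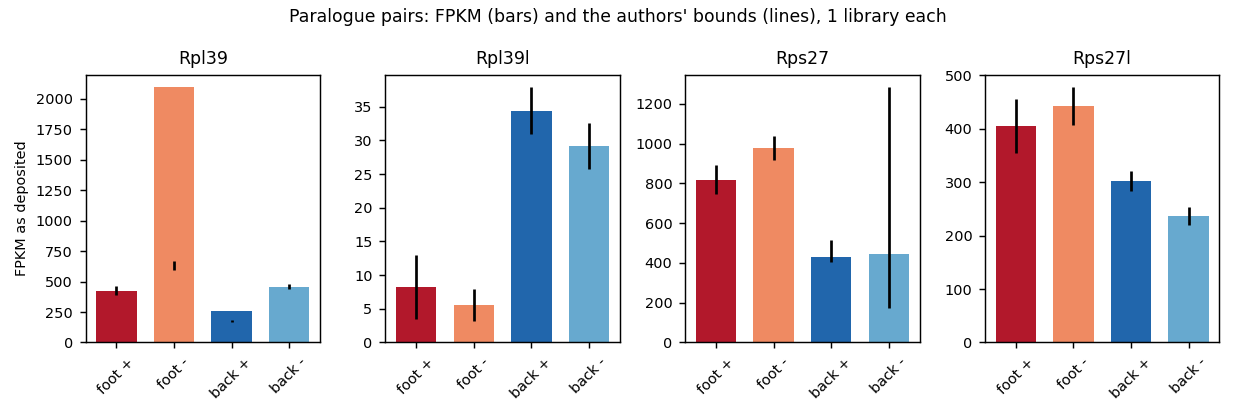
FPKM of ribosomal protein genes and their paralogues in the 4 libraries, as bars with the authors' bounds as lines. Rpl39l is higher in both back libraries (34.4 and 29.2) than in the foot (8.30 and 5.57), and the foot negative value of Rpl39 (2093) lies above its own bounds.

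Ribosomal protein genes that shared an entry with another gene mostly gave the same directions, but not those of the large subunit in the foot sort. Between foot and back, 24 of 26 were higher in the foot in the positive libraries (median 0.52) and 22 of 27 in the negative ones (0.33). Of coding genes 53.4% and 55.4% were higher. In the back sort 24 of 26 were lower in the positive library (-0.29), against 48.1% of coding genes. In the foot sort 22 of 27 were lower (-0.10), against 50.4%. There 15 of 18 joined large subunit genes were lower (-0.09), whereas 11 of 28 large subunit members were (0.10). Rps2, joined with Snora64, differed: it stood at 50.9, 68.0, 183 and 217 FPKM, with foot against back ratios of -2.06 and -2.36. Rps20, joined with snoU54, stood at 916, 978, 86.1 and 459 FPKM. Rpl7a, joined with SNORD36, was listed at 0 in the back positive library, with bounds of 0 to 1672 FPKM, so its level there is not known. Values of joined entries cannot be assigned to 1 gene. Of the 27, 11 stood alone in at least 1 library, so some of these ratios compare unlike entries.

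Other genes of translation were compared as lists. The 4 unjoined ribosomal proteins outside the symbol rule included Fau, a small subunit protein made as a ubiquitin-like fusion, at 280.3, 331, 163 and 176 FPKM. Its foot against back ratios were 0.54 and 0.21. The second rests on the foot negative value of 331 FPKM, which lies above its own bounds of 202 to 234. Gnb2l1, which encodes the ribosome-bound scaffold Rack1, shared its entry with small nucleolar RNAs and stood at 1297, 1281, 466 and 445 FPKM. Its foot values lay above their own upper bounds of 838 and 801 FPKM.

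Elongation factors and other TOP mRNAs did not share the members' foot against back shift as a list. Of 14, 6 were higher in the foot in the positive libraries (median -0.06) and 5 in the negative ones (-0.17). As deposited these medians were 0.17 and 0.52. Of coding genes 53.4% and 55.4% were higher after rescaling. Tpt1, which encodes translationally controlled tumour protein, stood at 711, 655, 324 and 277 FPKM (0.90 and 0.54). Eef2, the translocation factor, stood at 63.0, 57.8, 131 and 111 FPKM (-1.28 and -1.62). Hnrnpa1, an RNA-binding protein, had -3.47 and -2.61. In the back sort 10 of 14 were lower in the positive library (-0.17, and 0.05 as deposited), against 48.1% of coding genes. Naca, of the nascent polypeptide complex, stood there at 128 and 300.4 FPKM (-1.45). In the foot sort 7 of 14 were lower (-0.08), against 50.4% of coding genes.

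Genes of ribosome biogenesis were mostly lower in the foot after rescaling, 14 of 20 in the positive libraries (median -0.41) and 12 of 19 in the negative ones (-0.55). As deposited the second median was 0.05. Of coding genes 46.6% and 44.6% were lower. Myc, a transcription factor that drives ribosome synthesis, stood at 2.90, 4.60, 9.80 and 10.5 FPKM (-1.67 and -1.64). Ncl, nucleolin, stood at 11.0, 19.2, 61.7 and 15.9 FPKM. Initiation factors had 13 of 17 lower in the positive libraries (-0.40), against 46.6% of coding genes. In the negative ones 12 of 17 were lower (-0.18, and 0.49 as deposited), against 44.6%. Eif5, which activates GTP hydrolysis at the start codon, stood at 19.8, 18.8, 43.2 and 42.2 FPKM (-1.32 and -1.80). In the sorts, biogenesis medians were -0.36 in the foot and -0.26 in the back, and initiation medians -0.33 and -0.11 (the last 0.11 as deposited). Of the growth control genes (mTOR pathway), 2 or 3 of 10 reached 5 FPKM, of which Rheb, the activator of mTOR, stood at 100.1, 186, 142 and 97.4 FPKM.

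**Figure D5:**
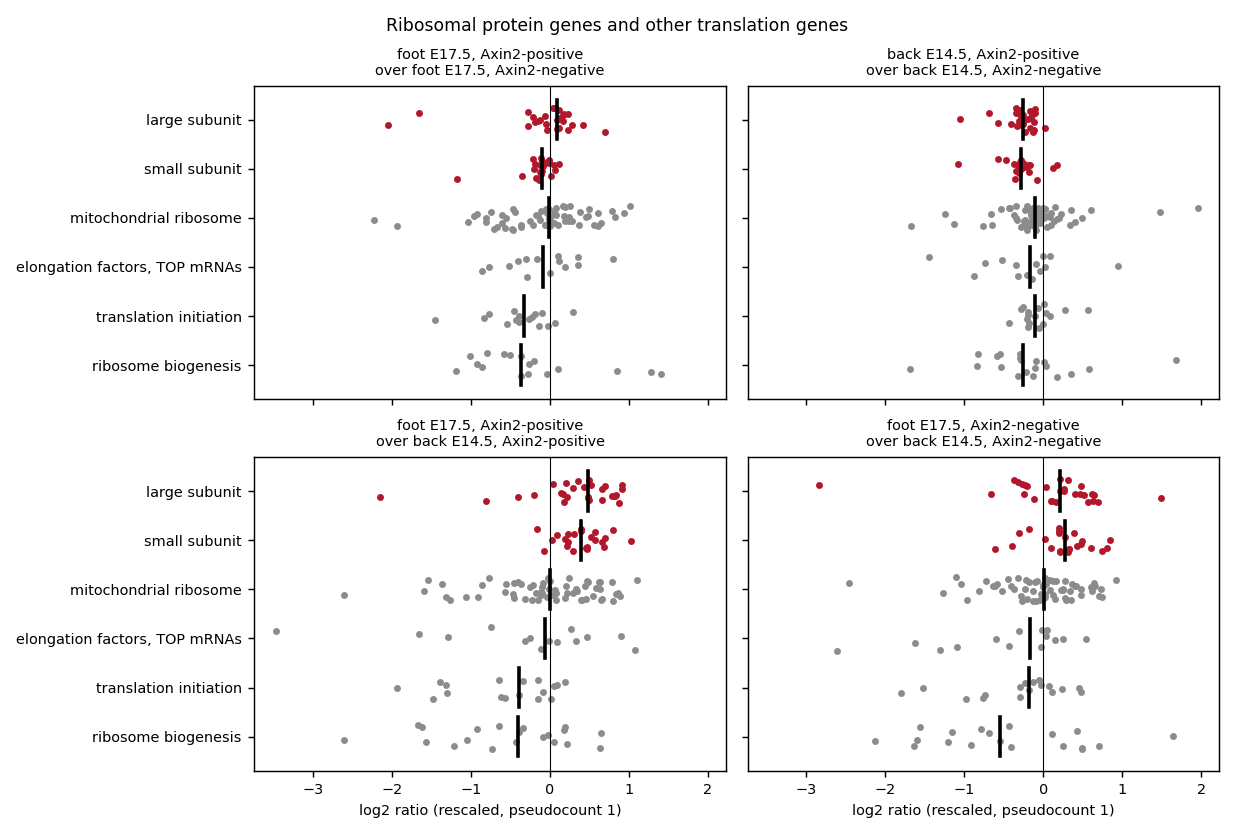
Log2 ratios after rescaling of cytoplasmic ribosomal protein genes and other translation gene lists in the 4 comparisons. Thick bars are medians; the ribosomal protein subunits (red) lie above 0 between foot and back (0.48 and 0.40, 0.21 and 0.28), and the mitochondrial ribosomal proteins lie near 0.

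The 64 mitochondrial ribosomal protein genes, which build the separate ribosome of mitochondria, gave medians of 0.01 in both foot against back comparisons (0.24 and 0.68 as deposited). Of 63, 32 were higher in the foot in each, against 53.4% and 55.4% of coding genes. In the back sort 42 of 62 were lower in the positive library (-0.10, and 0.12 as deposited), and in the foot sort 35 of 63 (-0.01). Of coding genes 48.1% and 50.4% were lower. Mrps5 stood at 3.10, 22.0, 20.8 and 21.0 FPKM, and Mrpl2 at 6.90, 14.6, 18.8 and 52.9 FPKM. These counts describe the libraries, and no difference between lists was tested.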

How the data were processed

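The deposited tables hold FPKM per gene with its bounds and status, per the file headers. The authors used TopHat and Cufflinks on mm9, per the submitters' processing notes; not given in the sources used here were versions, annotation and the bounds' confidence level. Read counts were not used here.

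FPKM was divided by median-ratio factors (1.08, 1.28, 0.918 and 0.786 for the foot and then the back, positive before negative), 1 was added and log2 ratios were formed. Genes compared were coding, of status OK, above 0 in both libraries and at least 5 FPKM in one. Half-widths combine the deposited bounds in quadrature where both values lie inside them. The calculation was tested on simulated data (Python 3.11.15, numpy 2.4.6, pandas 2.3.3).

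Members and lists were chosen with earlier results of these data known. Named were members at 0, outside their bounds or at least 2-fold apart, paralogues, the 5 highest and 5 lowest levels per subunit, the 4 highest and 4 lowest ratios and the 4 lowest ranges; from lists, up to 4 genes 2-fold apart and the 2 most abundant. Length strata, bound midpoints, shares over genes inside their bounds, the exchange of the foot libraries, joined genes and genes named beside them were added after values were seen. Lengths come from GENCODE vM21. Some genes are not reported here by name; they stay in the counts and medians.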

Additional observations from a re-analysis of the deposited data

Results flagged for a closer look

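With 1 library per group no search for outlying samples was possible. Results whose sort ratio (positive against negative library) had opposite signs in foot and back, beyond the authors' bounds or for a subunit median, are given here; the differences were not tested.

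Opposite signs by any amount were found for 20 of 51 members and for 2125 of 4354 coding genes. The median sort ratio of the large subunit was 0.10 in the foot and -0.26 in the back, a difference of 0.35. Rpl6 was 0.41 in the foot and -0.29 in the back, a difference of 0.71, with every value inside its own bounds. Rpl36 differed by 0.63 and Rpl8 by 0.46, and both have values above their own upper bounds in at least 1 library. As deposited, the large subunit median was -0.15 in the foot and -0.03 in the back, so its opposite signs and its higher value in the foot depend on the scaling.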

How the results depend on the processing

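No paired analysis was possible because each group holds 1 library. Leaving out a library was not run, since it would empty a group. Depth is known only through the width of the bounds, which is widest in the foot positive library.

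Without rescaling, the large and small subunit medians were -0.15 and -0.35 in the foot sort, -0.034 and -0.054 in the back sort, 0.72 and 0.63 between the positive and 0.91 and 0.98 between the negative libraries of foot and back. The number of members at least 2-fold apart was 3, 2, 2 and 2 in these comparisons. It became 0, 10 and 23 as deposited in the last 3, 0 in the back sort relative to the members' median, and 1 in each comparison without members outside their bounds. With bound midpoints it was 5 between the positive libraries. Shares of coding genes beside these changed counts were not computed. Rpl39 turned to -0.24 between the negative libraries with bound midpoints.

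The share of summed FPKM depends on the denominator. Over all named entries, as planned, it was 0.0945%, 0.00714%, 0.312% and 0.177% (foot, then back, positive before negative), since entries of small RNAs reach values such as 1.88e+07 FPKM. Over all entries it was 0.00278%, 0.00393%, 0.0253% and 0.0218%. Without members outside their bounds it was 0.0647%, 0.00421%, 0.218% and 0.134%. Over named entries of at most 5000 FPKM it was 4.37%, 5.0%, 4.06% and 4.42%, and over coding genes 9.48%, 11.1%, 8.68% and 10.2%. Of the other recomputed summary values, 115 moved by less than the bounds' half-width or 1.5 times for counts. For single members, 62 values stayed within it, 33 moved further and 1 reversed. A change of sign was counted as reversed only for members at least 2-fold apart. Smaller ratios that changed sign were not, such as Rpl18 in the foot sort (0.23, and -0.02 as deposited).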
